A study of Mus musculus with 6 samples.

Results

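The 10 genes described here, Arg1, Chil3, Retnla, Mrc1, Cd163, Folr2, Mgl2, Clec10a, Ccl24 and Il4ra, are widely used as marks of alternative macrophage activation. They were chosen by symbol from the 32285 genes listed for each library, and all 10 were found. Their unique molecular identifiers (UMIs, 1 per captured mRNA molecule) were summed per library and cell class over 69027 single cells of the injured rotator cuff enthesis, the tissue that anchors tendon to bone. The cells came from mice at 7 days post injury (dpi), after surgical detachment and repair of the tendon. The wild-type controls were C57BL/6 mice, and the Nlrp3-/- mice were a knockout line from a commercial supplier that lacks the sensor protein of the NLRP3 inflammasome. All mice of both groups received the same injury and repair, so no uninjured tissue enters any comparison. Each genotype had 3 droplet-based 3′ libraries made from pooled entheses. The labels give neither the number of animals in a pool nor their sex, so the spread between libraries may in part be technical.

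Alternative activation is the state that macrophages enter when IL-4 or IL-13 engages a receptor built on the IL-4 receptor alpha chain, encoded by Il4ra, and activates the transcription factor STAT6. The state is known for arginase, chitinase-like and resistin-like secreted proteins and for lectin and scavenger receptors at the cell surface, and it is tied to wound repair. Several of these genes are not limited to that state. Chil3 is also a gene of developing neutrophils, Mrc1, Cd163 and Folr2 mark many tissue-resident macrophages, and Mgl2 and Clec10a are also found on dendritic cells.

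The libraries held between 97042713 and 134901999 UMIs. The genotype labels were checked on Nlrp3, which stood at 87.6 to 145 CPM (UMIs of the gene per 1000000 UMIs) over the cells of the 3 wild-type libraries and had 0 UMIs in each Nlrp3-/- library. Xist, the RNA that silences 1 X chromosome in females, stood at 780 to 944 CPM in the Nlrp3-/- libraries and at most 0.102 CPM in the wild-type libraries, while the Y-linked Ddx3y had 0 UMIs in the Nlrp3-/- libraries and 39.9 to 57.1 CPM in wild type. Sex and genotype therefore cannot be told apart in any comparison below. Nlrp3-/- replicate 1 stood apart from the other libraries. Its median depth was 1511.5 UMIs per cell against 3813 to 6793 elsewhere, and 50.6% of its cells lay in clusters made almost only of that library and were set aside, against 0.471% to 1.66% elsewhere. Pairs of libraries shared 24 to 88 cell barcodes, at most 0.598% of the smaller library. The cells compared included 10947 macrophages, 5319 monocytes and 21015 neutrophils, and stages were named by marker genes that include none of the 10. An unnamed cluster of 1757 neutrophils belongs to no stage, and the 2520 dividing and 973 interferon-response monocytes and macrophages are stages of their own outside the macrophage and monocyte totals. Every stage had its own marker sum highest in all 6 libraries, except patrolling monocytes and MHC-II macrophages, which did so in 4 of 6.

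On mouse build GRCm38 the 10 genes are scattered, save for 1 pair of neighbours. Arg1 lies at chr10:24915221-24927484, Chil3 at chr3:106147554-106167564, Retnla at chr16:48842551-48844461, Mrc1 at chr2:14229392-14332057 and Cd163 at chr6:124304656-124330527. Folr2 lies at chr7:101839988-101857194, Il4ra at chr7:125552120-125579474 and Ccl24 at chr5:135569937-135573049. The pair is Mgl2 at chr11:70130329-70137550 and Clec10a at chr11:70156197-70170834, sister genes about 10.6 Mb from Nlrp3, which lies at chr11:59541568-59566956. A read that matches both of such sister genes may be counted for neither.

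Promoter sequences show how differently built these genes are upstream. RefSeq promoters of build GRCm38.p6 were matched for 7 of the 10 genes, and 3 are printed. They are those of Chil3, whose level changed with genotype, and of Retnla, a textbook IL-4 target that was almost undetected. The last is that of Mgl2, whose UMIs lay mostly in 2 unrelated cell types. Each covers the 250 bases before the start of transcription in RefSeq, which for Retnla and Mgl2 lies inside the gene span given above from the GENCODE annotation. Capitals mark matches to a STAT6-type motif, TTC and GAA with any 4 bases between them, which reads alike on both strands, and to a C/EBP-type motif, TTNNGNAA or its reverse TTNCNNAA. The 2 motifs were found in 5.85% and 36.8% of 32851 promoters, counted over windows of the same length.
Chil3, minus strand, chr3:106167565-106167814: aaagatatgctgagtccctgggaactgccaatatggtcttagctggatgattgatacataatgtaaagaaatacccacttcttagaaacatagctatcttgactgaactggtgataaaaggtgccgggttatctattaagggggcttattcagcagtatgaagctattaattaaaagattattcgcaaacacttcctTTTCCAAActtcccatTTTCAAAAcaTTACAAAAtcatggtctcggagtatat
Retnla, plus strand, chr16:48842359-48842608: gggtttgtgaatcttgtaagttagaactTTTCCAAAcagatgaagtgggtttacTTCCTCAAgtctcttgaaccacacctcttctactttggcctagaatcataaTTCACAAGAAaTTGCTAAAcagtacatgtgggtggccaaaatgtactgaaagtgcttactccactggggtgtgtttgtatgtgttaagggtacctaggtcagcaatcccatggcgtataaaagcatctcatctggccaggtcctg
Mgl2, plus strand, chr11:70130107-70130356: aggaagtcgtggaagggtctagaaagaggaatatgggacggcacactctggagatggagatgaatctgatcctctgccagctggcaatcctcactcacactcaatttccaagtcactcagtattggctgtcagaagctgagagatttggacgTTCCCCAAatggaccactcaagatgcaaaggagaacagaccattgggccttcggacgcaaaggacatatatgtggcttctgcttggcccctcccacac
The Chil3 window holds 3 C/EBP-type matches and 0 STAT6-type matches. The Retnla window holds 1 STAT6-type match and 3 C/EBP-type matches, 1 of which lies 1 base from the STAT6-type match. The Mgl2 window holds 1 C/EBP-type match and 0 STAT6-type matches. A match of letters is a description of the sequence and says nothing of binding in these cells.

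The 10 genes did not share 1 cell type of highest level. Levels are given as CPM of the class in a library, with the 3 libraries of a genotype in the order of replicates 1, 2 and 3. Macrophages held most UMIs of Arg1 (median over libraries 88.9% of the library's UMIs of that gene), Folr2 (84.3%), Mrc1 (81.2%) and Ccl24 (72.9%). Neutrophils held 87.3% of the Chil3 UMIs, and their dividing precursors alone held 58.7%. Mgl2 was split between dividing neutrophil precursors (46.5%) and conventional dendritic cells (30.2%), and Clec10a between conventional dendritic cells (28.0%) and macrophages (21.8%). Il4ra UMIs lay mostly in mesenchymal cells (40.4%) and macrophages (20.5%). Thus only part of the list, chiefly Arg1, Mrc1, Folr2 and Ccl24, was read out mainly from macrophages in this tissue.

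**Figure D1:**
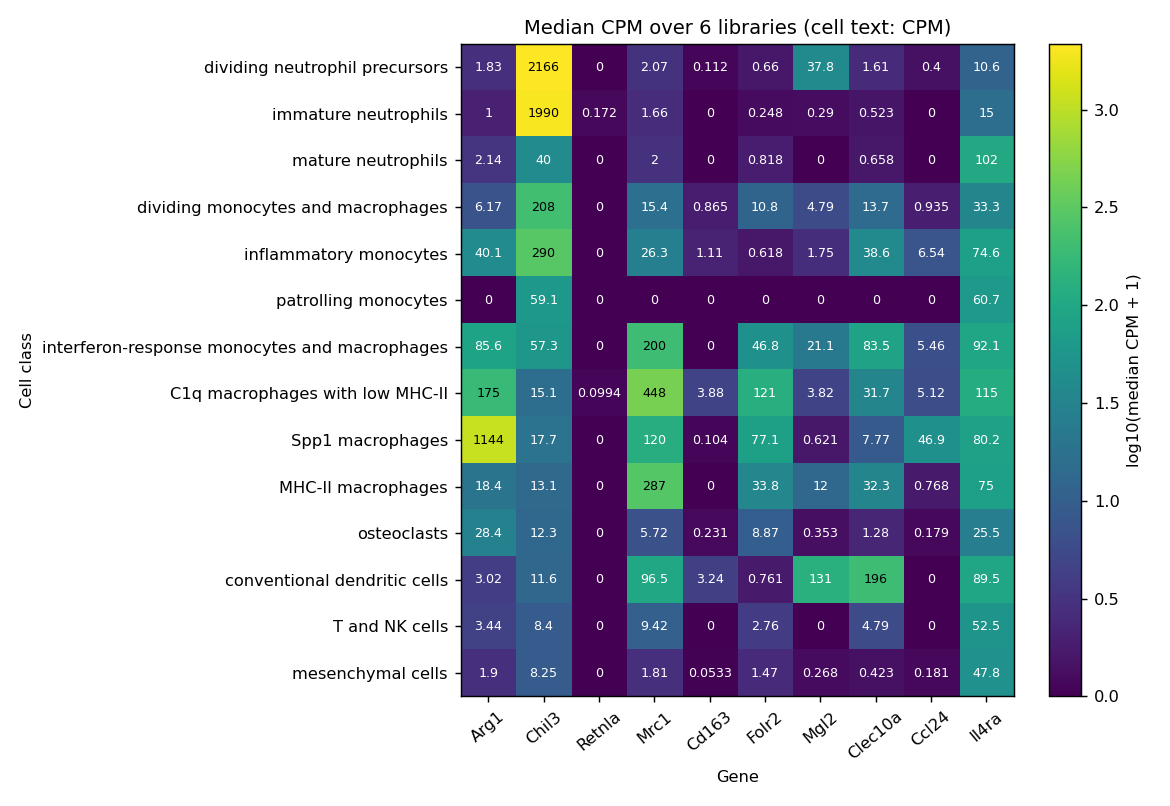
Median level over the 6 libraries, in CPM coloured as log10(CPM + 1), of each of the 10 genes (columns) in each macrophage, monocyte and neutrophil stage and 4 other cell classes (rows). Chil3 was highest in dividing neutrophil precursors, Arg1 in Spp1 macrophages, Mrc1 and Folr2 in C1q macrophages with low MHC-II, and Mgl2 and Clec10a in conventional dendritic cells.

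Chil3 encodes a secreted chitinase-like protein also called Ym1, and it was the gene of the 10 that differed between genotypes. It was lower in Nlrp3-/- mice in neutrophils, monocytes and macrophages, by 4.71- to 7.61-fold. Fold changes here and below come from the edgeR fit, scaled by TMM for differences in RNA composition between libraries, and need not equal the ratio of the CPM means. In neutrophils it stood at 3384, 2329 and 2789 CPM in wild type and at 562, 816 and 839 CPM in Nlrp3-/-. The lowest wild-type library was thus well above the highest Nlrp3-/- library. The group means were 2834 ± 529 and 739 ± 154 CPM (SD, n = 3 each). The fit put the level 4.71-fold lower in Nlrp3-/- (log2 fold change -2.23, SE 0.23, adjusted p = 0.00933, edgeR). In monocytes the wild-type libraries stood at 562, 427 and 631 CPM and the Nlrp3-/- libraries at 97.0, 141 and 41.2 CPM. Again no value of one genotype reached those of the other (6.38-fold lower, log2 fold change -2.67, SE 0.34, adjusted p = 0.00488). In macrophages the level was much smaller, 68.0, 29.3 and 33.3 CPM in wild type and 4.81, 9.09 and 5.61 CPM in Nlrp3-/- (7.61-fold lower, log2 fold change -2.93, SE 0.38, adjusted p = 0.0143). The share of all tested genes that passed the same threshold was 0.321% in neutrophils, 0.474% in monocytes and 0.348% in macrophages. These shares depend on single libraries, since the genes called numbered 40 in macrophages but 15 without Nlrp3-/- replicate 3 and 2455 without wild-type replicate 3, 46 in monocytes but 24 to 980, and 38 in neutrophils but 323 without Nlrp3-/- replicate 1.

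The Chil3 difference was present within stages. Neutrophils develop from dividing precursors through immature to mature cells, and Chil3 was high in the first 2 of these stages and low in mature cells. Precursors were above immature cells in 5 of 6 libraries, the exception being Nlrp3-/- replicate 2, and the ranges overlapped. Dividing precursors stood at 4512, 3375 and 3607 CPM in wild type and 749, 793 and 957 CPM in Nlrp3-/- (log2 fold change -2.49, SE 0.19, adjusted p = 0.000483). Immature neutrophils stood at 3250, 2989 and 3094 CPM against 736, 991 and 787 CPM (log2 fold change -2.14, SE 0.16, adjusted p = 2.36e-05). The genotypes filled the clusters of immature cells unequally, and 1 led by Retnlg, Ltf and Mmp8 held 1052, 388 and 13 wild-type against 89, 17 and 28 Nlrp3-/- cells. Within the largest cluster, led by Ltf, Ngp and Orm1, Chil3 stood at 5239, 4682 and 5173 against 1059, 1423 and 1087 CPM. Within the next, led by Ltf, Mmp8 and Retnlg, it stood at 1428, 1697 and 1535 against 293, 389 and 268 CPM. Dividing precursors and immature neutrophils separated the genotypes completely, by 5.62-fold and 4.40-fold. Of all genes tested in these stages, 30.2% and 23.5% did not overlap either. Mature neutrophils had little Chil3, 85.6, 43.3 and 36.6 CPM against 7.23, 114 and 3.02 CPM, and did not pass the test (log2 fold change -1.09, 95% interval -3.04 to 0.86, adjusted p = 0.824). The high value there came from Nlrp3-/- replicate 2, which had 148 mature neutrophils, and without that library the log2 fold change was -3.10 (adjusted p = 0.331). The genes tested passed in 0.388% of cases in dividing precursors, 1.02% in immature and 0.112% in mature neutrophils. These shares also depend on single libraries. The genes called numbered 42 in dividing precursors but 15 to 264, and 84 in immature neutrophils but 30 to 1041, each highest without wild-type replicate 3.

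The level also changed within the precursors. The precursor cluster led by the division genes Ube2c and Top2a with Fcnb, a ficolin gene of developing granulocytes, held the most Chil3, 7531, 7176 and 7020 CPM in wild type and 1641, 1937 and 1884 CPM in Nlrp3-/-. A precursor cluster led by the primary granule genes Elane, Prtn3, Ctsg and Mpo held less, 1008, 774 and 813 CPM against 61.1, 124 and 115 CPM. Another cluster of 774 shallower cells with the same leading genes, 541 of them from Nlrp3-/- replicate 1, lay between, at 2966, 2316 and 3168 CPM against 245 and 670 CPM in Nlrp3-/- replicates 1 and 3. The genotypes did not overlap in any of the 3 clusters. In dividing precursors as a whole, 30.2% of all genes tested did not overlap either, and the share was not counted for single clusters. Cells of Nlrp3-/- replicate 1 counted as dividing precursors had a median of 1450 UMIs, against 9246 to 13212 in the other libraries. The sum of the 10 neutrophil markers was also lower in Nlrp3-/- dividing precursors, 294558, 238941 and 230973 against 207374, 158638 and 212243 CPM. The 10 mesenchymal markers, 0 of which were at 0, summed to 205, 460 and 345 CPM there in wild type and to 1791, 503 and 941 CPM in Nlrp3-/-. Neither sum overlapped between genotypes in that stage, and their part in the result was not tested.

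Chil3 was also lower in Nlrp3-/- in each monocyte and macrophage stage that could be tested. Dividing monocytes and macrophages stood at 446, 344 and 384 CPM against 65.5, 72.8 and 23.6 CPM (log2 fold change -3.06, adjusted p = 0.00266). Clusters of 1358 and 664 cells in this stage were led by the primary granule genes Ctsg, Prtn3, Mpo and Elane, as in neutrophil precursors. A cluster of 498 cells was led by Ctsk and Birc5. The stage thus includes cells that resemble progenitors. Inflammatory monocytes, the Ly6C-high cells that enter wounds from blood, fell from 551 ± 111 to 95.4 ± 52.6 CPM (SD, n = 3 each, log2 fold change -2.67, adjusted p = 0.00528). These cells lay in 3 clusters that the genotypes filled unequally. The cluster led by Plac8 and Ly6c2 with Chil3 held 833, 678 and 93 wild-type and 44, 154 and 59 Nlrp3-/- cells, and the cluster led by Plac8 and Il6 held 30, 11 and 440 against 264, 404 and 460. Within the first Chil3 stood at 644, 520 and 546 against 98.6, 167 and 41.0 CPM. Within the second it stood at 838 and 738 CPM in wild-type replicates 1 and 3, the ones with at least 20 of its cells, against 125, 176 and 45.9 CPM. In the cluster led by Ifitm1 it stood at 366, 280 and 512 against 56.6, 43.7 and 28.6 CPM, so the genotypes did not overlap in any of the 3. In inflammatory monocytes as a whole, 18.7% of all genes tested did not overlap either, and the share was not counted for single clusters. In monocytes and macrophages with an interferon response the values were 220, 95.1 and 136 against 19.6, 5.55 and 13.5 CPM (log2 fold change -3.87, adjusted p = 0.000401). C1q macrophages with low MHC-II (log2 fold change -3.10, adjusted p = 0.0188), Spp1 macrophages (-2.66, adjusted p = 0.0394) and MHC-II macrophages (-2.76, adjusted p = 0.0271) had at most 87.5 CPM in any library. Spp1 and MHC-II macrophages held at most 54.9 and 42.5 CPM, while T and NK cells, which should lack the gene, reached 55.2 CPM. Patrolling monocytes were not tested, since 1 library had 17 of them. The background of tested genes that passed was 0.526% in the dividing cells, 0.446% in inflammatory monocytes, 0.876% in the interferon-response cells, 0.796% in C1q macrophages with low MHC-II, 0.206% in Spp1 macrophages and 1.31% in MHC-II macrophages. The genes called in these stages also depended on single libraries, for example 58 in the dividing cells but 25 to 1190, 85 in C1q macrophages with low MHC-II but 20 to 2122, and 104 in MHC-II macrophages but 15 to 1231, each highest without wild-type replicate 3. Chil3 thus passed in 8 of the 9 neutrophil, monocyte and macrophage stages tested, and none of the other 9 genes passed in any of them. In osteoclasts, the related bone-resorbing cells, Chil3 stood at 36.8, 18.8 and 14.2 against 1.28, 10.3 and 5.46 CPM, which did not overlap but missed the threshold (log2 fold change -2.14, adjusted p = 0.0978). Of all genes tested in osteoclasts, 23.1% did not overlap either. The calls in dividing precursors, immature neutrophils, dividing monocytes and macrophages, inflammatory monocytes and interferon-response cells held without any 1 library. Those in the 3 macrophage stages were lost without Nlrp3-/- replicate 1 or without Nlrp3-/- replicate 3, which left 5 calls each time. They were also lost in MHC-II and Spp1 macrophages without wild-type replicate 1, in MHC-II macrophages without wild-type replicate 2 and in C1q macrophages with low MHC-II without Nlrp3-/- replicate 2 (adjusted p = 0.0957). Without wild-type replicate 3 the count was 14, with 6 calls of other genes of the 10.

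**Figure D2:**
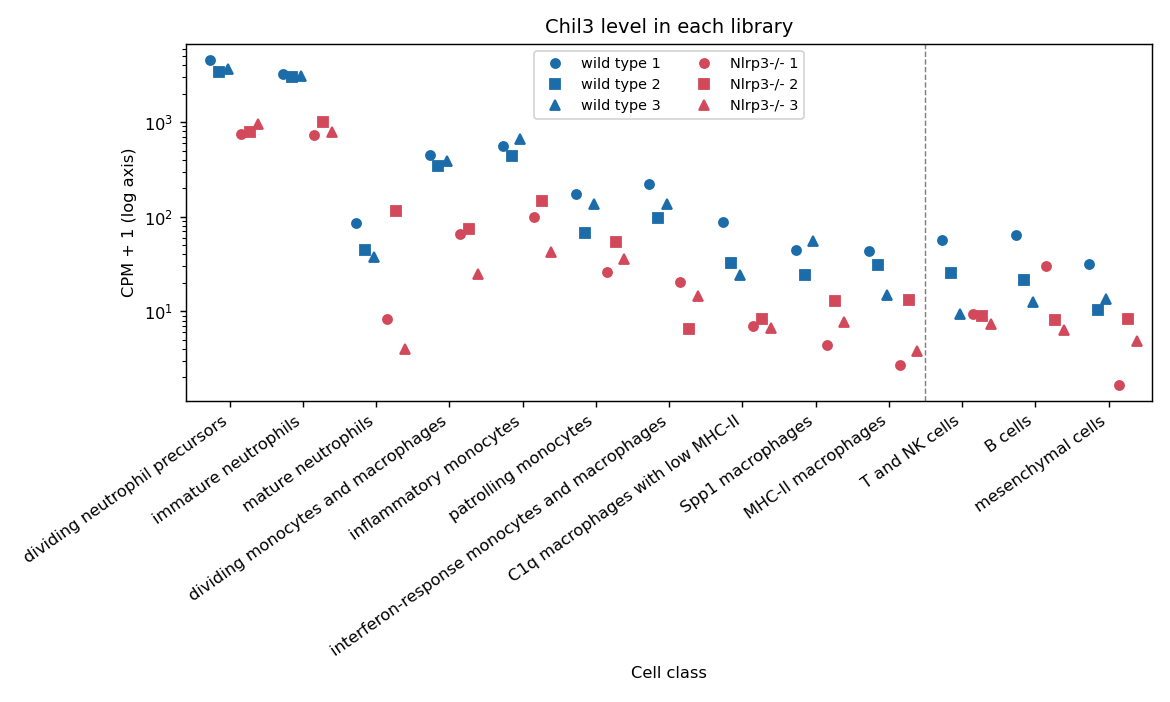
Chil3 level as CPM + 1 on a logarithmic axis for each library (points), wild type in blue and Nlrp3-/- in red, in each stage and, right of the dashed line, in T and NK, B and mesenchymal cells. The wild-type points lie above the Nlrp3-/- points in each stage except mature neutrophils, where Nlrp3-/- replicate 2 reached 114 CPM.

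Counting cells gave a similar picture where Chil3 is expressed. After each cell was thinned to 1000 UMIs, 32.1%, 26.4% and 34.5% of wild-type monocytes and 8.91%, 11.6% and 4.30% of Nlrp3-/- monocytes held a Chil3 UMI. Without thinning the shares were 46.3% to 57.1% and 13.1% to 30.9%, at median depths of 3957 to 4981 UMIs. T and NK cells, which should lack the gene, held one in 0.452% to 2.53% of wild-type cells and at most 0.488% of Nlrp3-/- cells after thinning, at median depths of 1750.5 to 3186.5 UMIs before it. Among immature neutrophils the thinned shares were 61.9%, 65.8% and 70.6% against 38.0%, 48.0% and 40.5%. Over all neutrophils the shares overlapped, 42.4%, 31.3% and 38.6% against 19.3%, 40.9% and 36.7%. Mature cells numbered 2304, 2818 and 1022 in wild type and 1044, 148 and 305 in Nlrp3-/- before thinning. The thinned shares include 1449, 1509 and 918 of these wild-type and 793, 108 and 178 of these Nlrp3-/- cells. The thinning left out 16, 16 and 2 wild-type and 9, 6 and 2 Nlrp3-/- monocytes, and 38, 42 and 11 wild-type and 122, 11 and 12 Nlrp3-/- immature neutrophils. Over all neutrophils it left out 922, 1384 and 128 wild-type and 623, 79 and 168 Nlrp3-/- cells.

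Free RNA carried a difference of the same direction. The ambient profile, taken from barcodes with at most 100 UMIs, held 832, 310 and 579 CPM of Chil3 in wild type and 80.2, 168 and 126 CPM in Nlrp3-/-. T and NK cells stood at 55.2, 24.6 and 8.35 CPM and at 8.46, 7.91 and 6.28 CPM. Macrophages in wild-type replicates 1 and 2 were therefore only slightly above that level. Spp1 and MHC-II macrophages, at most 54.9 and 42.5 CPM in any library, lay below the T and NK level of wild-type replicate 1. Set against S100a8, an abundant neutrophil transcript, wild-type macrophages held 6.02 to 6.54 Chil3 UMIs per 100 S100a8 UMIs, T and NK cells 2.08 to 3.08, B cells 2.58 to 3.25, mesenchymal cells 2.68 to 3.71, endothelial cells 2.51 to 4.58 and neutrophils 2.56 to 3.39. Monocytes held 34.8 to 66.3. The wild-type macrophage ratio was above those of the other classes but monocytes in each library, and the monocyte ratio was far above it. Neither dividing precursors alone nor the ambient profile was measured this way, and the source of these Chil3 UMIs was not tested. In Nlrp3-/- macrophages the ratio was 0.856 to 3.32, which overlapped the range of 0.470 to 2.73 in T and NK cells. When 5% of each class's UMIs were subtracted in the proportions of the ambient profile, macrophages kept 27.7, 14.5 and 4.601 CPM in wild type and 0.804, 0.681 and 0 CPM in Nlrp3-/- (log2 fold change -5.43, adjusted p = 0.0444). These values rest on 235, 177 and 32 UMIs in wild type and on 7, 4 and 0 in Nlrp3-/-. The subtraction itself brought the Nlrp3-/- values near 0, and nothing is read from the larger fold change. Single stages had no such subtraction. The part of free RNA in the macrophage results beyond it was not tested.

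Neutrophil markers were also lower in Nlrp3-/- in some of the other myeloid classes. The 10 neutrophil markers, 0 of which were at 0, summed to 2808, 1213 and 1177 CPM in wild-type macrophages and to 1332, 944 and 1039 CPM in Nlrp3-/- macrophages. In monocytes they summed to 3730, 2151 and 2250 CPM and to 1171, 1371 and 1853 CPM. In dividing monocytes and macrophages the sums were 8827, 4275 and 10325 against 4145, 1706 and 3263 CPM, and in interferon-response cells 2823, 1535 and 4328 against 509, 956 and 1145 CPM. The genotypes overlapped in macrophages and not in the other 3 classes. They also overlapped in each macrophage stage and in osteoclasts. The sums were 3478, 1265 and 1019 against 1124, 1012 and 1038 CPM in C1q macrophages with low MHC-II. In Spp1 macrophages they were 2125, 1540 and 1589 against 1855, 836 and 1073 CPM, and in MHC-II macrophages 1762, 834 and 609 against 330, 844 and 949 CPM. The part of these markers in the Chil3 result was not tested. Without Nlrp3-/- replicate 1, the Chil3 log2 fold change was -2.12 in neutrophils, -2.75 in monocytes and -2.78 in macrophages, and the macrophage value no longer passed (adjusted p = 0.0700). The macrophage call was also lost without Nlrp3-/- replicate 2 (adjusted p = 0.0504) or replicate 3 (adjusted p = 0.149), while the neutrophil and monocyte calls held without any 1 library.

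Genes closely related to Chil3 and Retnla were set beside them. Reads that match several genes are dropped, so these levels cannot show how shared reads were assigned. Chil4, the nearest relative of Chil3 and its neighbour on chromosome 3, stood below 1 CPM in neutrophils of every library. Chil1, a further chitinase-like gene, stood at 182, 163 and 139 CPM in wild-type neutrophils and 135, 125 and 143 CPM in Nlrp3-/- neutrophils, overlapping values that did not pass the test (log2 fold change -0.55, adjusted p = 0.347). Retnlg, a resistin-like gene of neutrophils, stood at 11688, 9310 and 8942 CPM against 4929, 3496 and 4106 CPM. Its values did not overlap but the difference missed the threshold (log2 fold change -1.53, SE 0.26, adjusted p = 0.0868).

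Arg1 encodes arginase 1, which turns arginine into ornithine and urea, and it marked Spp1 macrophages. These stood at 676, 1435 and 1638 CPM in wild type and 2093, 653 and 853 CPM in Nlrp3-/-. The 6 values were higher than those of C1q macrophages with low MHC-II, 197, 375 and 176 against 147, 175 and 94.0 CPM, in 6 of 6 libraries and did not overlap them. MHC-II macrophages held 3.02 to 34.3 CPM, and monocytes 18.9 to 110. The level was thus successively lower from Spp1 to C1q to MHC-II macrophages, and the high libraries in Spp1 macrophages came from both genotypes. Over all macrophages the values were 261, 510 and 678 CPM in wild type and 828, 292 and 323 CPM in Nlrp3-/-, and did not differ beyond their spread (log2 fold change -0.10, 95% interval -1.10 to 0.90, adjusted p = 0.916). In C1q macrophages with low MHC-II alone the genotypes did not overlap, but the lower value in Nlrp3-/- missed the threshold (log2 fold change -1.001, SE 0.30, adjusted p = 0.125). Of all genes tested in this stage, 24.1% did not overlap either. The genotypes filled the clusters of this stage unequally. Its cluster led by Pf4 and C1qa with Arg1 and Spp1 held 513, 809 and 152 wild-type and 301, 209 and 268 Nlrp3-/- cells, of 915, 1587 and 542 and of 1621, 543 and 1325 in the stage. Arg1 there stood at 318, 608 and 325 against 195, 315 and 239 CPM, and the values of the other 2 clusters measured overlapped. The stage difference passed without wild-type replicate 3 (log2 fold change -1.25, adjusted p = 0.00923), in a fit that called 2122 of 10973 genes.

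Arg1 was highest in 1 small cluster. This cluster of 578 cells within Spp1 macrophages, led by Cxcl3, Saa3, Arg1, Mmp12 and Nos2, stood at 3293, 3836 and 3919 CPM in the 3 libraries with at least 20 of its cells, wild-type replicates 2 and 3 and Nlrp3-/- replicate 1. Nos2, which turns arginine into nitric oxide and is the textbook counterpart of Arg1 in classical activation, was thus among the leading genes of the same cluster. Folr2 stood at 0 to 5.86 CPM there. The libraries with the highest Arg1 over all macrophages were the ones that supplied this cluster, with 101, 113 and 341 cells against 11, 4 and 8 in the others.

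Retnla, which encodes the resistin-like protein also called RELM-alpha or Fizz1, was nearly absent. The libraries held 1, 490 and 9 UMIs in wild type and 0, 39 and 15 UMIs in Nlrp3-/-, in 1, 24, 3, 0, 5 and 2 cells. Of the 490 UMIs of wild-type replicate 2, 375 (76.5%) lay in 1 cell of the interferon-response class with 9248 UMIs in all. Monocytes held 0 UMIs in each library. The gene passed the filter on low counts in none of the 12 classes and stages, and no fold change is given. A handful of cells expressed it strongly, and the tissue as a whole hardly did.

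Mrc1, the mannose receptor CD206 that takes up glycoproteins, was highest in C1q macrophages with low MHC-II. These stood at 271, 320 and 465 CPM in wild type and 461, 435 and 534 CPM in Nlrp3-/-. MHC-II macrophages followed with 182 to 321 CPM and were lower in 6 of 6 libraries, although the 2 ranges overlapped. Spp1 macrophages held 33.4, 54.2 and 124 CPM against 129, 194 and 115 CPM. Over all macrophages Mrc1 stood at 200, 258 and 327 CPM in wild type and 335, 349 and 373 CPM in Nlrp3-/-. Every Nlrp3-/- library was above every wild-type library, yet the difference missed the threshold (log2 fold change 0.31, 95% interval -0.04 to 0.66, adjusted p = 0.305). Without wild-type replicate 3 it passed (log2 fold change 0.46, adjusted p = 0.0358), in a fit that called 2455 of 11826 genes. In monocytes Mrc1 held 20.8 to 47.8 CPM with no difference beyond the spread (log2 fold change -0.13, 95% interval -0.91 to 0.66, adjusted p = 0.887).

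Folr2, the folate receptor beta of resident macrophages, was highest in the same C1q macrophages as Mrc1 and lower in MHC-II macrophages. C1q macrophages with low MHC-II stood at 114, 127 and 81.1 CPM in wild type and 115, 170 and 151 CPM in Nlrp3-/-. Spp1 macrophages held 66.4, 59.0 and 56.8 against 88.0, 146 and 87.9 CPM, and MHC-II macrophages 21.7 to 62.7 CPM. Over all macrophages the level was 83.7 ± 15.7 CPM in wild type and 122 ± 25.3 CPM in Nlrp3-/- (SD, n = 3 each), from 88.7, 96.2 and 66.1 against 99.7, 149 and 117 CPM. The groups did not overlap, but the narrow gap missed the threshold (log2 fold change 0.40, 95% interval -0.02 to 0.82, adjusted p = 0.276). In Spp1 macrophages it missed it as well (log2 fold change 0.71, SE 0.20, adjusted p = 0.330). Under the alternatives Folr2 passed only in MHC-II macrophages without wild-type replicate 3, where it was lower in Nlrp3-/- (log2 fold change -1.03, adjusted p = 0.00789). That fit called 1231 of 8942 genes. Chil3, Mrc1 and Folr2 were the 3 of 9 tested genes whose genotypes did not overlap in macrophages, where 23.9% of all tested genes did not overlap either. In monocytes 2 of 6 did not overlap against 18.5% of all genes, and in neutrophils 1 of 6 against 22.3%.

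Cd163, the scavenger receptor for haemoglobin bound to haptoglobin, was close to the limit of detection. Macrophages held 1.79, 1.56 and 2.74 CPM in wild type and 0.109, 8.44 and 2.67 CPM in Nlrp3-/-, from 150 UMIs in all. The highest and the lowest value both came from Nlrp3-/- libraries, and the interval of the difference was wide (log2 fold change 0.65, 95% interval -1.26 to 2.56, adjusted p = 0.688). Of these UMIs, 141 lay in C1q macrophages with low MHC-II.

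**Figure D3:**
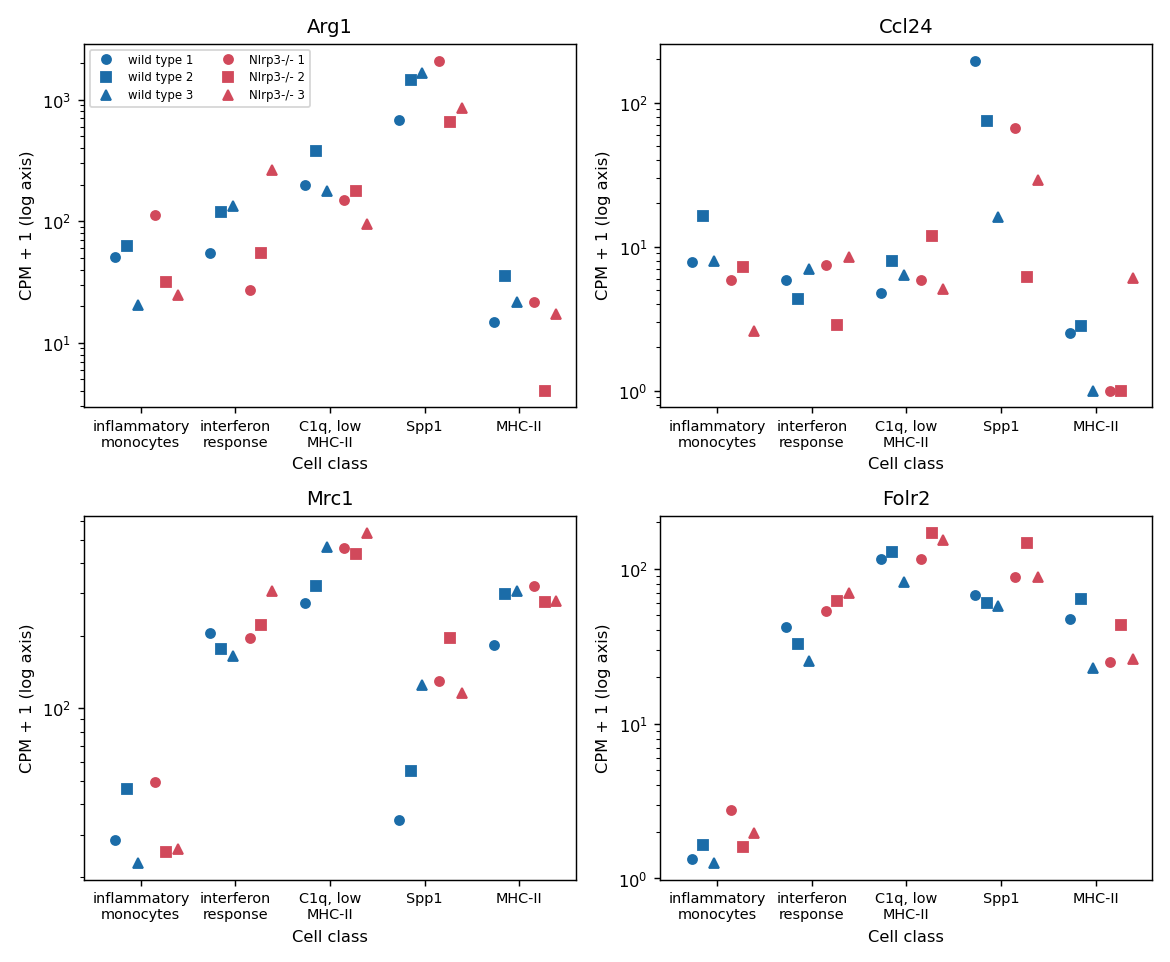
Level of Arg1, Ccl24, Mrc1 and Folr2 as CPM + 1 on a logarithmic axis for each library (points, wild type in blue and Nlrp3-/- in red) in inflammatory monocytes, interferon-response cells and 3 macrophage stages. Arg1 and Ccl24 peak in Spp1 macrophages, Mrc1 and Folr2 in C1q macrophages with low MHC-II, and the points of the 2 genotypes are mixed in most panels.

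Mgl2 and Clec10a encode the galactose-binding lectins CD301b and CD301a, and their cell types parted. Both were highest in conventional dendritic cells, where Mgl2 stood at 48.8, 121 and 103 CPM in wild type and 140, 243 and 184 CPM in Nlrp3-/-, and Clec10a at 187, 331 and 184 against 163, 205 and 226 CPM. The Mgl2 values did not overlap between genotypes there, with a difference short of the threshold (log2 fold change 0.85, SE 0.26, adjusted p = 0.1004). Of all genes tested in these cells, 26.2% did not overlap either. After that the genes went separate ways. By median, Mgl2 had its next highest level in dividing neutrophil precursors, 27.4, 47.0 and 34.8 against 28.5, 43.0 and 40.8 CPM, which overlapped. The precursors were above interferon-response cells in 5 of 6 libraries, and the latter ranged from 4.87 to 68.9 CPM. Clec10a had its next highest level in interferon-response cells, 63.2, 104 and 78.8 against 65.2, 107 and 88.3 CPM, and then, by median, in inflammatory monocytes, 25.3 to 48.4 CPM. These monocytes were above MHC-II macrophages, at 20.5 to 61.8 CPM, in 4 of 6 libraries, and the ranges overlapped.

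Within the neutrophil precursors Mgl2 was concentrated in 1 cluster. The 1357 cells led by Elane, Prtn3, Ctsg, Mpo and Ms4a3 stood at 56.6, 81.8 and 60.8 CPM in wild type and 66.3, 65.5 and 74.8 CPM in Nlrp3-/-. Clec10a in the same cells stood at 0.713 to 3.90 CPM, and the precursor cluster led by Ube2c and Top2a held 3.51 to 6.42 CPM of Mgl2. Mgl2 was therefore in the cluster where Chil3 was lower, and nearly absent where Chil3 was at its highest. These cells were deep, with a median of 18342 UMIs, so thinning to 1000 UMIs left an Mgl2 UMI in 1.90% to 3.13% of dividing precursors, against 3.65% to 14.5% of conventional dendritic cells and at most 0.281% of T and NK cells. Before thinning the shares were 6.41% to 27.8%, 7.89% to 27.6% and at most 0.552%.

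In macrophages and monocytes both lectin genes were low. Mgl2 stood at 1.34, 5.84 and 1.23 CPM against 2.95, 5.84 and 6.78 CPM in macrophages (log2 fold change 0.66, 95% interval -0.60 to 1.92, adjusted p = 0.529). In monocytes it held 0.166, 0.632 and 1.23 against 2.17, 5.91 and 7.50 CPM, from 59 UMIs in all, and did not pass the filter on low counts. The 2 ranges did not overlap, and the difference passed with no filter (log2 fold change 2.89, adjusted p = 7.86e-06) and, where the gene entered the fit, without wild-type replicate 3 (3.57, adjusted p = 0.0167). Those fits called 522 of 17833 and 980 of 9860 genes, against 46 of 9706 in the main fit. Clec10a stood at 21.3, 35.6 and 20.6 against 26.1, 15.6 and 36.4 CPM in macrophages (log2 fold change -0.10, 95% interval -0.82 to 0.62, adjusted p = 0.875). In monocytes it stood at 33.0, 25.1 and 38.3 against 36.5, 46.1 and 42.5 CPM (log2 fold change 0.25, 95% interval -0.12 to 0.62, adjusted p = 0.512). The genotypes overlapped for Clec10a in both classes.

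**Figure D4:**
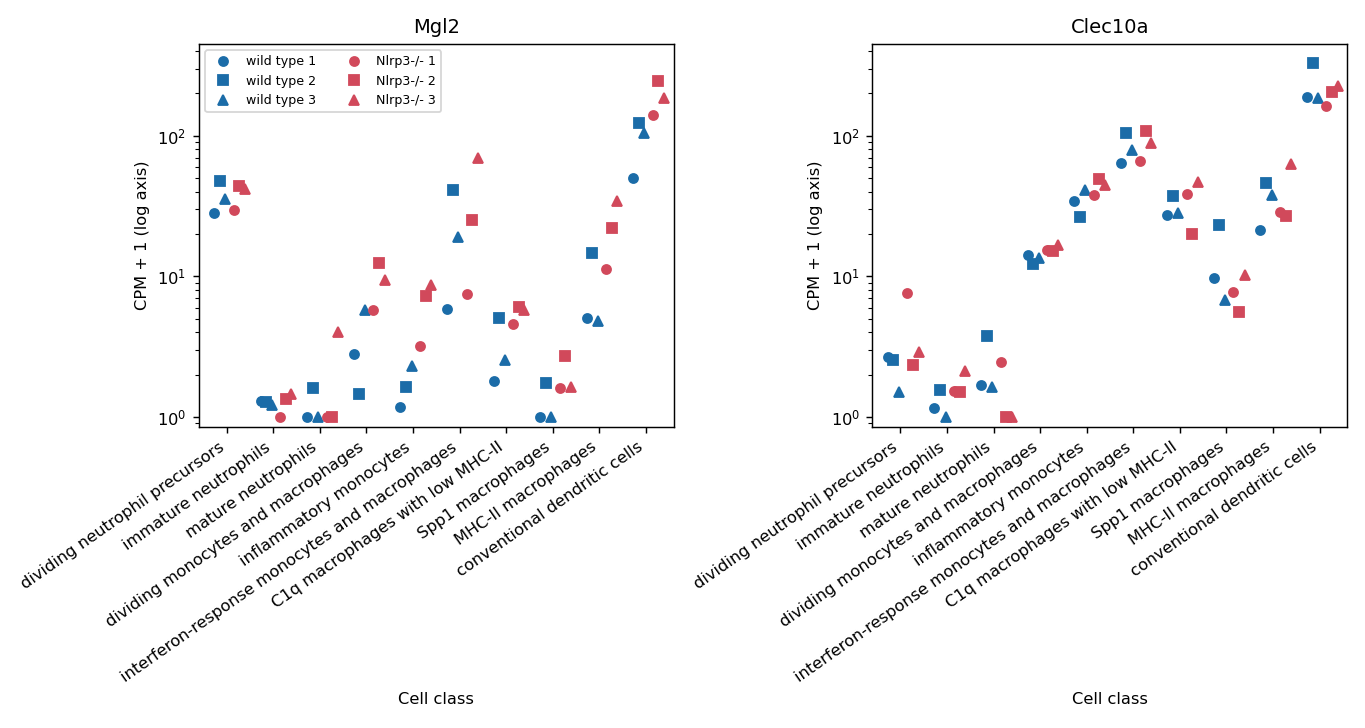
Levels of Mgl2 and Clec10a as CPM + 1 on a logarithmic axis for each library (points, wild type in blue and Nlrp3-/- in red) in neutrophil, monocyte and macrophage stages and conventional dendritic cells. Both are high in conventional dendritic cells, and only Mgl2 stands clear of the floor in dividing neutrophil precursors, at 27.4 to 47.0 CPM.

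Ccl24 encodes eotaxin-2, a chemokine that draws eosinophils, and its level depended on few cells. In Spp1 macrophages, its highest stage, it stood at 195, 74.2 and 15.1 CPM in wild type and 65.5, 5.13 and 28.3 CPM in Nlrp3-/-. The libraries of 1 genotype thus differed among themselves by over 10-fold. In Nlrp3-/- replicate 1, 134 of 267 UMIs (50.2%) lay in 1 Spp1 macrophage, and in wild-type replicate 1 a single cell held 94 of 487 (19.3%). No difference was detectable in macrophages (45.0, 19.8 and 8.23 against 26.0, 8.11 and 11.8 CPM, log2 fold change -0.80, 95% interval -2.16 to 0.55, adjusted p = 0.473). Monocytes held 6.79, 15.2 and 6.62 CPM against 4.78, 5.91 and 1.56 CPM. These values did not overlap, but the difference missed the threshold (log2 fold change -1.37, SE 0.47, adjusted p = 0.289), and passed when no filter on low counts was applied (adjusted p = 0.00127). The fit with no filter called 522 of 17833 genes, against 46 of 9706 with it.

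Il4ra, the receptor chain through which IL-4 and IL-13 act, was present in every macrophage stage, at 98.1 to 129 CPM in C1q macrophages with low MHC-II, 54.0 to 93.0 CPM in Spp1 and 60.1 to 94.6 CPM in MHC-II macrophages. Macrophages stood at 86.0, 106 and 95.5 CPM in wild type and 93.9, 108 and 103 CPM in Nlrp3-/-. The CPM means were 95.9 and 102, while the TMM-scaled fit had the opposite sign, with a narrow interval that spans 0 (log2 fold change -0.05, 95% interval -0.29 to 0.20, adjusted p = 0.832). Monocytes held 79.7, 73.4 and 52.2 against 84.4, 63.8 and 75.3 CPM, where the sign of the fit also differed from that of the CPM means (log2 fold change -0.02, 95% interval -0.48 to 0.44, adjusted p = 0.966). Neutrophils carried it late in development, with 8.40 to 21.9 CPM in dividing precursors, 6.55 to 20.97 CPM in immature cells and 73.6, 120 and 66.3 against 99.7, 104 and 160 CPM in mature cells. The first 2 of these ranges overlapped, and mature cells lay above both in every library. Mesenchymal cells stood at 94.5, 128 and 46.2 against 37.7, 30.7 and 49.4 CPM, which overlapped (log2 fold change -1.25, adjusted p = 0.321).

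Within single cells the genes fell into groups as well. Co-detection was expressed as the number of cells holding a UMI of both genes over the number that their separate shares give, after thinning. In macrophages Arg1 and Mrc1 were found together less often than their shares give in 6 of 6 libraries, at ratios of 0.348 to 0.552. This pools stages that differ in both genes. Within C1q macrophages with low MHC-II the ratios were 0.487 to 0.915. Within Spp1 macrophages they were 0.216 to 1.004, with 1 library above 1. Over all macrophages Mrc1 and Folr2 were found together more often in 6 of 6, at 1.33 to 1.87, and Mrc1 and Il4ra likewise, at 1.08 to 1.60. Arg1 and Il4ra had ratios on both sides of 1, from 0.897 to 1.21. In neutrophils, whose stages differ in both genes, Chil3 and Il4ra had ratios of 0.262 to 0.786 in 6 of 6 libraries. Cells of 1 library share their preparation, so these ratios describe the libraries.

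Each gene's pattern over 10 stages and 6 libraries (60 points, which share libraries and depth) was set beside all other genes as a description. The most similar genes by Pearson's r were Nxpe5 (0.98), Maf (0.97) and Adap2 (0.97) for Mrc1, Fabp5 (0.93), Gpnmb (0.93) and Pf4 (0.93) for Folr2, and Pdpn (0.91), Cd36 (0.91) and Ecm1 (0.90) for Arg1. For Chil3 they included Arhgdib (0.92) and Fcnb (0.84). For Clec10a they were Ly86 (0.94), Calhm6 (0.94) and Ms4a6b (0.94), and for Il4ra Lrrc25 (0.94), Scarb2 (0.93) and Gab2 (0.93). For Ccl24 they were Arg1 (0.82), Fam20a (0.82) and F7 (0.79), and for Mgl2 Hsdl2 (0.75), Tmem273 (0.73) and Lmo2 (0.72). The sparse counts of Retnla and Cd163 had no close match, with Ly6a (0.41), Siglec1 (0.39) and Arfgap1 (0.38) for Retnla and Ctla2a (0.57), Cela1 (0.57) and Mettl7a1 (0.55) for Cd163. Among the 10 themselves, Mrc1 went with Clec10a (0.85) and Folr2 (0.84), while Chil3 ran against Il4ra (-0.66) and Folr2 (-0.65).

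Set side by side, 1 of 9 tested genes passed in macrophages, 1 of 6 in monocytes and 1 of 6 in neutrophils, in each case Chil3 and in each case lower in Nlrp3-/-. In neutrophils the genes other than Chil3, Mgl2 and Il4ra were near the floor. Arg1 stood there at 1.05, 2.29 and 0.908 CPM in wild type and 17.8, 2.69 and 1.88 CPM in Nlrp3-/-, where replicate 1 alone was high (log2 fold change 2.11, 95% interval -0.02 to 4.24, adjusted p = 0.401). Mrc1 held at most 7.50 CPM and Clec10a at most 3.42 CPM in any library, and both of these values came from Nlrp3-/- replicate 1 as well. The median log2 fold change of the tested genes of the list was -0.05, -0.07 and 0.38, against 0.01, 0.02 and 0.02 over all tested genes. Whether the genotype difference itself varied between classes was tested with an interaction term. For Chil3 the term was 0.01 between macrophages and monocytes (adjusted p = 1.00), -0.61 between macrophages and neutrophils (adjusted p = 0.549) and -0.59 between monocytes and neutrophils (adjusted p = 0.775). None of the 10 genes passed this edgeR test in any of the 3 pairs of classes. Of all tested genes 0.0262%, 0.0154% and 0.0087% passed after adjustment. The largest value was that of Mgl2 between monocytes and neutrophils (2.82, adjusted p = 0.283). It passed without Nlrp3-/- replicate 1 (2.90, adjusted p = 0.0177), and the term between macrophages and monocytes passed without wild-type replicate 3 (-3.09, adjusted p = 0.0370).

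**Figure D5:**
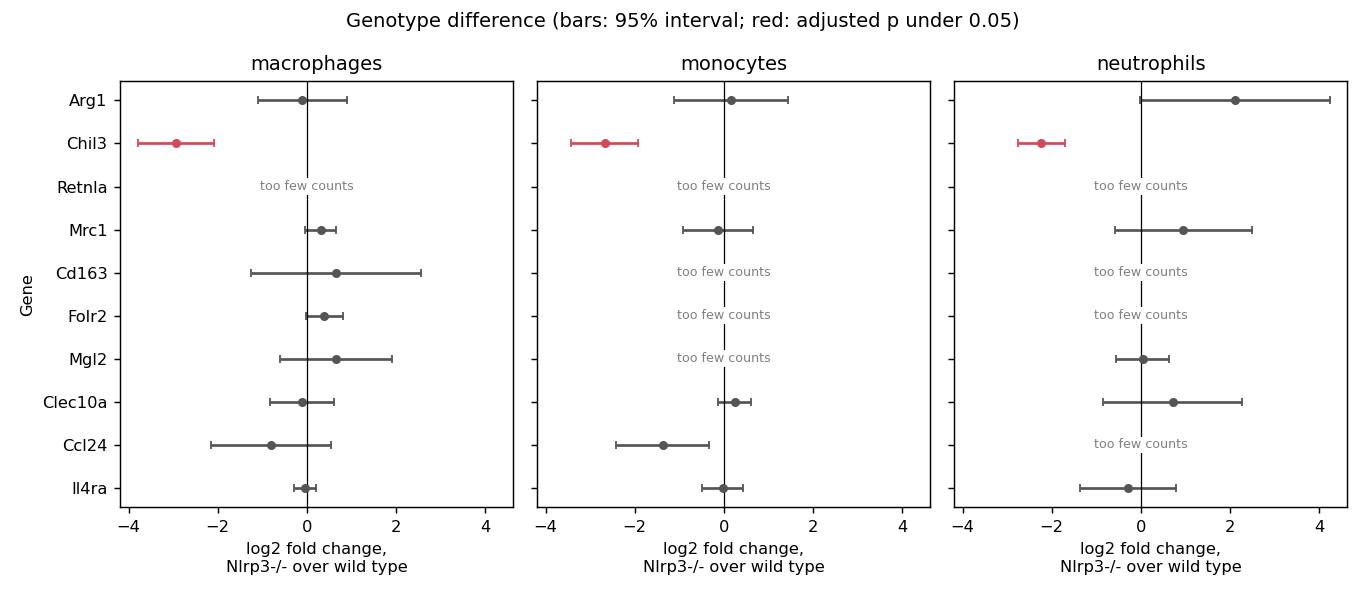
Log2 fold change, Nlrp3-/- over wild type, with its 95% interval (bars), for each of the 10 genes that could be tested in macrophages, monocytes and neutrophils. The Chil3 intervals lie wholly below 0 in the 3 classes, and each other interval spans 0 except that of Ccl24 in monocytes, which missed the threshold after adjustment.

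The rest of the pathway was looked at through 8 lists of related genes. Of the ligands, Il4 was scarce in macrophages, at 0 to 0.634 CPM, and its level in other classes is not given here. Il13 was clearest in T and NK cells, at 4.17, 3.26 and 27.4 CPM in wild type and 0, 1.13 and 1.79 CPM in Nlrp3-/-. These values rest on few molecules, since T and NK cells held 590741 to 1221865 UMIs of all genes per library. The high value came from wild-type replicate 3 alone, and no genotype difference is read from them. Stat6, which carries the signal to the nucleus, stood at 43.0, 43.3 and 44.6 against 44.9, 52.9 and 45.1 CPM in macrophages. Its lowest Nlrp3-/- value was just above its highest wild-type value, and 23.9% of all genes tested there did not overlap either. The list of ligands, receptor chains and signalling genes had 13 of 16 genes tested in macrophages, with 0 passing in either direction and 3 at an unadjusted p under 0.05. The other genes induced by IL-4 had 12 of 18 tested and 0 passing, with a median log2 fold change of 0.25. The transcription factors (14 of 14 tested), the scavenger and resident macrophage genes (12 of 16), the IL-10 pathway (10 of 10), arginine and polyamine metabolism (13 of 14) and the relatives of the 10 genes (4 of 13) also had 0 passing, with 5, 4, 4, 2 and 1 genes at an unadjusted p under 0.05. Over all genes tested 2229 of 11506 were under that value in macrophages, 1291 of 9706 in monocytes and 1480 of 11828 in neutrophils, and nothing particular to the lists is read from their counts. In monocytes and in neutrophils 0 genes of these lists and of the classical activation list passed, with 0 to 4 genes per list at an unadjusted p under 0.05. The DESeq2 Wald test called 1 list gene in monocytes, 2 in neutrophils and 10 in macrophages.

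Over whole macrophages, monocytes and neutrophils, the classical activation list held the 1 call outside the 10. Within stages, list genes passed 4 times in C1q macrophages with low MHC-II, 4 in MHC-II macrophages, 4 in interferon-response cells and 1 in immature neutrophils, and 0 times in the other 5 stages tested. Of all genes tested there, 0.796%, 1.31%, 0.876% and 1.02% passed. The list counts were 0, 0, 2 and 0 without Nlrp3-/- replicate 2, and 22, 18, 4 and 15 without wild-type replicate 3. That last fit also called 9 in dividing monocytes and macrophages, 9 in inflammatory monocytes and 7 in Spp1 macrophages. Cxcl10, a chemokine induced by interferon, stood at 149, 150 and 92.5 CPM in wild-type macrophages and 53.3, 42.4 and 42.3 CPM in Nlrp3-/- macrophages. The genotypes did not overlap (log2 fold change -1.64, SE 0.22, adjusted p = 0.0184), and it was 1 of 15 tested genes of its list. Among the remaining genes Il10, the anti-inflammatory cytokine, stood at 29.4, 30.9 and 22.8 against 11.7, 9.41 and 15.5 CPM and just missed the threshold (log2 fold change -1.29, SE 0.21, adjusted p = 0.0504). Odc1, which turns the ornithine made by arginase into putrescine, stood at 246, 260 and 209 against 146, 103 and 133 CPM (log2 fold change -1.03, SE 0.17, adjusted p = 0.0507). Gas6, a bridging ligand in the clearance of dead cells, had higher values in Nlrp3-/-, 71.0, 73.7 and 94.9 against 131, 131 and 163 CPM (log2 fold change 0.71, SE 0.13, adjusted p = 0.0745). The count of called list genes in macrophages was 0 in the fits that left out wild-type replicate 1 or 2 or knockout replicate 2 or 3, 2 without Nlrp3-/- replicate 1 and 25 without wild-type replicate 3.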

How the data were processed

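Single-cell RNA was measured in 6 libraries of the mouse enthesis at 7 dpi, 3 wild type and 3 Nlrp3-/-, grouped by title. The genotype field of 2 knockout libraries names another Nlrp gene, and their title was followed. For each library the authors deposited a raw matrix of counts, UMIs per gene and barcode, with no normalization or cell calling. The file header names Cell Ranger 4, while the submitters' processing notes name Cell Ranger 2.1.1 and build mm10. These are 3′ counts in which reads that match several genes are dropped, so closely related genes can be undercounted.

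Kept barcodes had at least 500 UMIs, at least 200 genes and at most 10% mitochondrial UMIs, and either differed from the ambient profile (false discovery rate 0.01, 10000 simulations) or exceeded a depth of 0.1 times the 99th percentile among the 10000 deepest. Of 92032 cells kept, 12373 were removed as likely doublets by simulated doublet scores at 0.8% per 1000 cells. Cells were clustered with scanpy 1.11.5 and leidenalg 0.10.2 (2000 variable genes, 30 components, 15 neighbours, resolution 1.0), first all cells and then macrophages, monocytes and neutrophils, without the 10 genes, Nlrp3 and sex-linked genes. Clusters were named by at least 3 markers in at least 10% of cells at 1.5-fold, with thresholds set after the clusters were seen. A name means cells that resemble the type and may differ from that of the study. Clusters with over 75% of cells from 1 library were set aside, 10632 cells in all.

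UMIs were summed per library and class (at least 20 cells per library). Genotypes were compared by quasi-likelihood in edgeR 4.0.16 under R 4.3.3, with TMM scaling and filterByExpr. Adjusted p-values are Benjamini-Hochberg over all genes tested, two-sided, at a threshold of 0.05, and intervals of fold changes are 95%. The scripts were tested on simulated counts. Members and lists were chosen with earlier results of these data known, and levels across classes have no test. The text names the 10 genes, at most 4 called genes per list, genes a sentence turns on, and the 3 genes with the highest Pearson's r of log2(CPM + 1) among those of at least 10 CPM in 1 stage. One gene that this rule picks is not reported here. Il10, Odc1, Gas6 and the single clusters were chosen after their values were seen. Alternatives were RLE size factors, no filter, DESeq2 1.42.0, a replicate block, other limits on UMIs, mitochondrial share and doublets, resolution 2.0, the 10 genes kept in clustering, set-aside clusters kept, ambient subtraction at 5% and leaving out each library.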

Additional observations from a re-analysis of the deposited data

How the results depend on the processing

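Chil3 was lower in Nlrp3-/- in 51 of 51 alternatives over the 3 classes and passed in 47. The exceptions were macrophages without each of the 3 Nlrp3-/- libraries and neutrophils with a replicate block, which also ended the call in Spp1 macrophages (adjusted p = 0.136). Of 352 fold changes of single genes under alternatives, 317 kept their direction and their side of the threshold. Where a value moved, the cause was not tested. Depth limits Retnla and Cd163, and the Mgl2 values in monocytes rest on 59 UMIs. Sex, genotype and any batch of preparation cannot be told apart, and 3 libraries per genotype leave wide intervals. Counting error alone does not cover the spread between pools.

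The number of the 10 genes that passed was 0 to 2 in macrophages and 1 to 2 in monocytes when single libraries were left out, and 3 in monocytes with no filter on low counts. In neutrophils it was 0 with the replicate block, where Chil3 stood at -2.22 (adjusted p = 0.0699). Over the stages, 8 calls became 5 with DESeq2, which gave no adjusted p in 3 stages, and 5 to 14 without single libraries. The interaction test gave 0 to 1 calls without single libraries.

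Replicate numbers do not pair the libraries by any label. Deviations of same-numbered libraries correlated at -0.198 to -0.132 in macrophages, -0.208 to 0.00607 in monocytes and -0.516 to 0.0296 in neutrophils. With the replicate block, 39, 51 and 14 genes passed in the 3 classes, against 40, 46 and 38 without it, and Arg1 passed in C1q macrophages with low MHC-II (-0.94, adjusted p = 0.0200).

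List genes called in macrophages, 1 in the report, numbered 3 with RLE size factors, 11 with no filter, 10 with DESeq2, 3 with the replicate block, 2 at a mitochondrial limit of 5%, 6 with doublets removed at 2 times the expected rate, 0 at resolution 2.0, 2 with the 10 genes kept in clustering, 3 with ambient subtraction and 0 to 25 without single libraries. In monocytes, 0 became 9 with no filter, 1 with DESeq2 and 0 to 8 without single libraries. In neutrophils, 0 became 2 with no filter, 2 with DESeq2, 1 with the clusters of 1 library kept and 0 to 7 without single libraries. Genes called in all rose to 478, 522 and 147 with no filter, 400, 106 and 196 with DESeq2, and ranged without single libraries from 15 to 2455 in macrophages, 24 to 980 in monocytes and 16 to 323 in neutrophils, highest without wild-type replicate 3 in macrophages and monocytes and without Nlrp3-/- replicate 1 in neutrophils.

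Fold changes that turned direction were all short of the threshold. With the 10 genes kept in clustering, Mgl2 was -0.097 and Il4ra 0.052 in macrophages. At resolution 2.0, Clec10a was 0.076 in macrophages and -0.47 in monocytes, Il4ra 0.018 in monocytes and Mgl2 -0.039 in neutrophils. With more doublets removed Arg1 was -0.27 in monocytes, and with the replicate block Mgl2 was -0.0055 in neutrophils. Without single libraries the ranges were -0.78 to 0.18 for Arg1, -0.46 to 1.24 for Cd163, -0.42 to 0.22 for Clec10a, -1.42 to 0.0034 for Ccl24 and -0.090 to 0.044 for Il4ra in macrophages. They were -0.92 to 0.55 for Arg1, -0.57 to 0.25 for Mrc1 and -0.21 to 0.12 for Il4ra in monocytes, and -0.10 to 0.27 for Mgl2 and -0.81 to 0.26 for Il4ra in neutrophils. The median Clec10a level in monocytes, 37.4 CPM, was 51.3 CPM with the 10 genes kept in clustering and 25.9 CPM at resolution 2.0.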
